A study of Mus musculus with 4 samples.

Results

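The respiratory chain genes encode the subunits of the 5 enzyme complexes of oxidative phosphorylation, together with cytochrome c. They were found on the array by gene symbol (those that begin with Nduf, Uqcr, Cox4 to Cox8 or Atp5, and Sdha, Sdhb, Sdhc, Sdhd and Cycs). Of 88 symbols that matched, 79 had a probe that reached a detection p under 0.01 on 1 or more of the arrays, among 9975 genes tested in all. These 79 were 33 subunits of complex I, 3 of complex II, 6 of complex III, cytochrome c, 13 of complex IV and 14 of complex V. They also held 7 assembly factors of complex I (the Ndufaf genes), the pseudogene Ndufs5-ps and Cox7a2l, which helps to join complexes III and IV into supercomplexes. Each gene was read from its brightest tested probe, and levels are not compared between genes, since probes differ in how strongly they bind.

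RNA of flow-sorted cells from the adipose tissue of mice at 2 months of age was hybridized to 4 Illumina Mouse-6 V2 arrays. The labels give the strain as Black 6, whereas the methods give a mixed background of C57BL/6 and 129/SV. By label, 2 libraries were PPARG null GFP+ cells (numbers 1 and 3), 1 was PPARG het GFP+ cells (number 2) and 1 was PPARG null GFP− cells (number 3). GFP comes from AdipoTrak, in which tTA expressed from the Pparγ locus drives a nuclear GFP, so that GFP+ marks cells of the PPARγ lineage. All mice that carry AdipoTrak thus have 1 altered Pparγ allele, controls included. The methods name as mutants mice in which Sox2-Cre deletes a floxed Pparγ allele in the epiblast, whereas the results name mice in which the deletion runs from the AdipoTrak allele itself, and the labels do not say which were used. The cells were stromal vascular cells, taken after floating adipocytes were removed. The methods name 6 mice for each genotype, but neither they nor the labels say how these were divided over the libraries, and the array is a readout of bulk RNA, in which fewer cells of a type and less RNA per cell cannot be told apart.

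Pparg, the gene deleted in the mutants, ran against the labels. Its intensity was 3217 and 2479 across the libraries labelled null GFP+, against 188 in that labelled het GFP+ and 209 in that labelled null GFP−. Every direction given here is therefore by label only. The deposited intensities had a median of 120 in each library, with values near 108 at background and values under 154 not well above background. Differences are in log2 of the background-corrected intensity plus an offset of 16, which stretches differences of dim probes relative to the raw intensities. Tests are from limma with Benjamini-Hochberg adjustment over all probes. Only null GFP+ had more than 1 library, so the only spread measured was that between those 2 libraries (1 residual degree of freedom). For each gene limma combines this with the spread typical of all probes (4.03 prior degrees of freedom). The single het GFP+ and null GFP− libraries are assumed to vary alike.

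Complex I takes electrons from NADH and complex II from succinate, complex III passes them to cytochrome c, and complex IV hands them to oxygen. The proton gradient that complexes I, III and IV build is used by complex V, the ATP synthase, to make ATP. Several complex IV subunits exist as a form found in most tissues and a form typical of heart and skeletal muscle or brown fat, and in fat the chain is known for its place in adipocyte differentiation and in brown fat heat production.

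Of the 79 genes, only Cox8b passed the test, and it did so in both comparisons of the libraries labelled null GFP+. In null GFP+ against het GFP+, 1 of 79 genes was called at an adjusted p under 0.05, against 3.92% of all genes (391 of 9975). Unadjusted p was under 0.05 in 4 of the 79 and in 1686 of all 9975. In null GFP+ against null GFP−, 1 of 79 was called, against 3.94% of all genes (393 of 9975). Unadjusted p was under 0.05 in 1 of the 79 and in 1613 of all 9975. In het GFP+ against null GFP−, 0 of 79 were called by limma, and the share among all genes was also 0% (2 of 79 genes had an unadjusted p under 0.05, and 349 of all 9975). The first 2 comparisons share the null GFP+ libraries. The smallest difference that was called for any gene was 1.64 on the log2 scale against het GFP+ and 1.65 against null GFP−, and the median standard error of the 79 genes was 0.29 in both, so that differences of the size seen in most of these genes were not detectable with this number of arrays.

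The remaining genes lay close together. Outside Cox8b and Cox6a2 no gene differed by more than 0.81 between null GFP+ and het GFP+ or by more than 0.79 between null GFP+ and null GFP−. Against het GFP+, 68 of 79 genes (86.1%) lay within 0.5 of 0, as did 67.9% of all genes, and 62 of 79 (78.5%) lay above 0, as did 55.1% of all genes. The median difference was 0.19 against het GFP+, beside 0.05 over all genes, and 0.08 against null GFP−, beside 0.02 over all genes. The median of het GFP+ minus null GFP− was -0.06, beside -0.03 over all genes. The medians differed with the null GFP+ library used. With null GFP+ number 3 as the only null GFP+ library, the median was 0.31 against het GFP+ and 0.19 against null GFP−, and with null GFP+ number 1 alone it was 0.10 against het GFP+ and -0.05 against null GFP−.

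**Figure D1:**
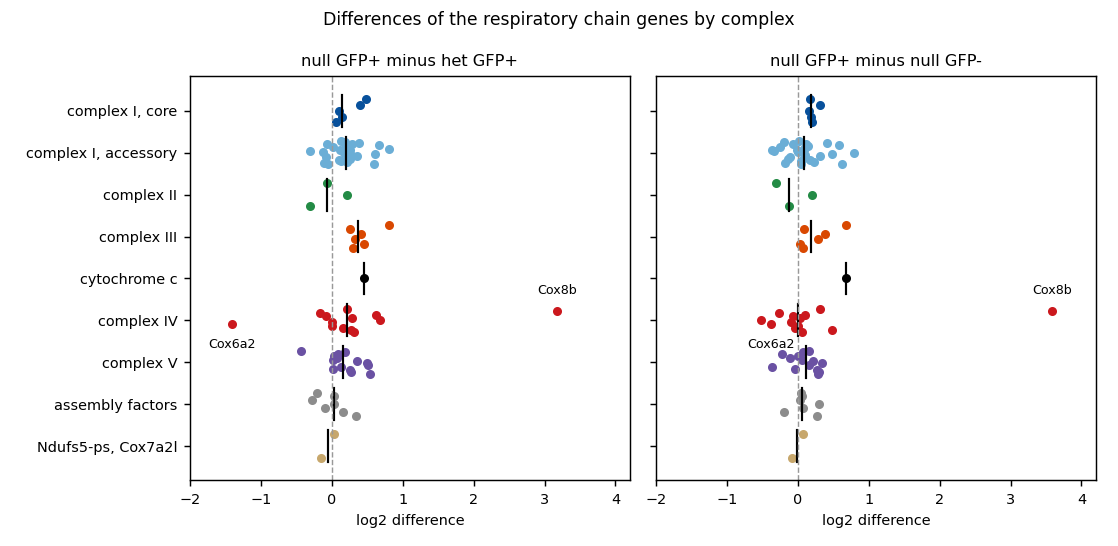
Log2 difference of each of the 79 respiratory chain genes, by complex, for null GFP+ minus het GFP+ (left) and null GFP+ minus null GFP− (right). Points are genes, black bars are medians of the group, and the dashed line marks 0. Cox8b stands apart at 3.17 and 3.59, Cox6a2 lies at -1.41 and -0.37, and no other gene passes 0.81.

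In 42 of 79 genes both libraries labelled null GFP+ read above het GFP+, against 42.7% of all genes, and in 12 of 79 both read below it, against 34.0% of all genes. Both read above null GFP− in 34 of 79 genes, against 39.9% of all genes, and below it in 12 of 79, against 34.9% of all genes. As shares of the 79 genes these are 53.2%, 15.2%, 43.0% and 15.2%. On the lower side the genes lay below the all-gene share in both comparisons. On the upper side they lay above it against het GFP+ (53.2% beside 42.7%). Against null GFP− the upper share was close to that of all genes (43.0% beside 39.9%).

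Cox8b, the form of complex IV subunit 8 typical of heart, skeletal muscle and brown fat, had intensities of 564 and 1004 across the libraries labelled null GFP+, against 165 in that labelled het GFP+ and 147 in that labelled null GFP−. Both null GFP+ libraries were far above the other libraries and the groups did not overlap. On the log2 scale it was 3.17 higher than in het GFP+ (SE 0.46, adjusted p = 0.0352 from limma), 6.49-fold in null GFP+ number 1 and 12.5-fold in number 3. Against null GFP−, where the probe was not well above background, it was at least 10.6-fold higher on the background-corrected scale (log2 difference 3.59, SE 0.46, adjusted p = 0.0276 from limma). These folds depend on the background correction, without which the log2 differences were 2.19 against het GFP+ and 2.36 against null GFP−, both still past the test (adjusted p = 0.0143 and 0.0106 from limma). Between het GFP+ and null GFP− the difference was 0.42. The call was lost in both comparisons when probes undetected on every array were kept in the test (adjusted p = 0.179 and 0.146 from limma). By the methods' t-test, which sets 2 libraries against 1 and so has 1 degree of freedom, Cox8b did not reach the methods' threshold of an unadjusted p under 0.05 and a change over 2-fold in either comparison. That threshold was met by 1 of 79 genes (Cox6a2) against het GFP+, beside 2.87% of all genes, and by 0 of 79 against null GFP−, beside 3.10% of all genes. Cox6a2 was well above background only in het GFP+ and may have passed the detection filter through that library alone. Cox8a, the form found in most tissues, is not named in the annotation used here.

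Adipocyte genes were high in the same libraries as Cox8b. Of 10 adipocyte markers 7 were tested, and 4 of them (Adipoq, Plin4, Car3 and Lep) were called higher in null GFP+ in both comparisons. Adipoq, the fat cell hormone adiponectin, read 819 and 3345 across the libraries labelled null GFP+, against 126 in het GFP+ and 122 in null GFP−. Summed over the 7 genes, the intensity was 6813 and 14608 in null GFP+, against 925 in het GFP+ and 894 in null GFP−, so that for both the sum and Cox8b null GFP+ number 3 was the highest library and null GFP+ number 1 the next. Of 6 brown adipocyte markers 1 was detected, Zic1, which was not well above background in null GFP+ (99 and 109) and read 178 in het GFP+ and 165 in null GFP−, while Ucp1, Cidea, Elovl3, Otop1 and Dio2 had no detected probe. Of 7 endothelial markers tested, 5 were called higher against het GFP+, while Tek read 3061 and 2097 in null GFP+, against 5293 in het GFP+ and 3815 in null GFP−, and markers of mast cells, neutrophils and macrophages were lower (7 of 7, 8 of 8 and 6 of 8 called). The part of these cell types in the difference of Cox8b was not tested.

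**Figure D2:**
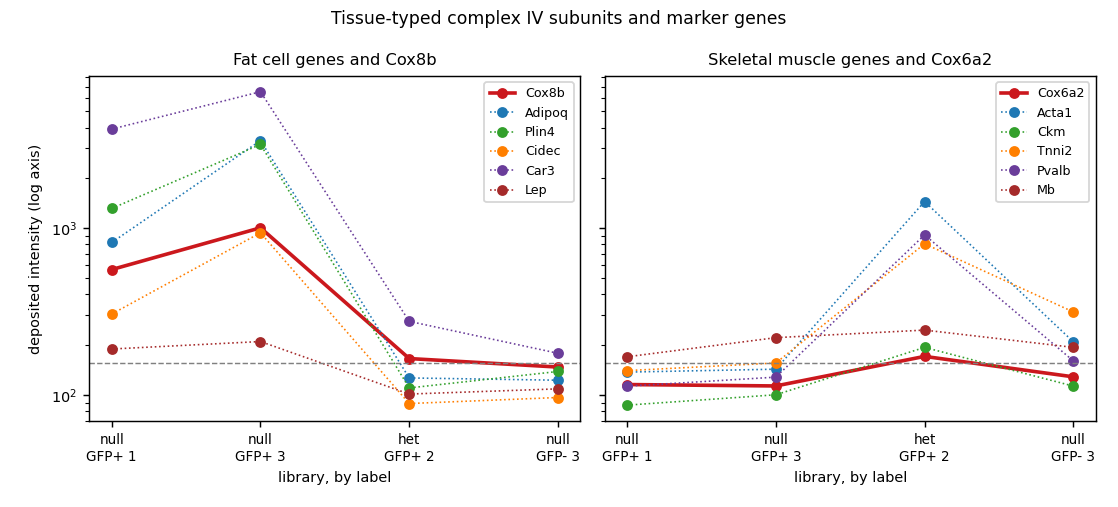
Deposited intensity (log axis) in each library, in the order null GFP+ 1, null GFP+ 3, het GFP+ 2 and null GFP− 3, of Cox8b with 5 fat cell genes (left) and of Cox6a2 with 5 skeletal muscle genes (right). Points are single libraries, and the grey dashed line marks 154, under which a probe is not well above background. Cox8b is at 564 and 1004 in null GFP+ where Adipoq is at 819 and 3345, and Cox6a2 reaches its highest value, 170, in het GFP+ where Acta1 is at 1442.

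Cox6a2, the heart and skeletal muscle form of subunit 6a, ran the other way. Its intensity was 115 and 113 across the libraries labelled null GFP+, against 170 in that labelled het GFP+ and 128 in that labelled null GFP−. Only het GFP+ was well above background, and both null GFP+ libraries lay below the other libraries. The detection filter may thus have kept Cox6a2 through het GFP+ alone, which favours a lower value in null GFP+. Against het GFP+ it was at least 1.25-fold lower in null GFP+ on the background-corrected scale (log2 difference -1.41, SE 0.27). This missed the threshold (adjusted p = 0.0735 from limma). Without the correction the difference was -0.57 (adjusted p = 0.201 from limma). Adjusted p from limma was 0.155 with an offset of 50, 0.176 with a variance trend and 0.111 without the detection filter. The threshold was passed only in the fit on means of all tested probes of a gene (adjusted p = 0.0403 from limma). Cox6a2 has 1 tested probe, so its difference was the same in that fit. Skeletal muscle genes were highest in the same library, with a summed intensity over 9 of 12 markers of 1267 and 1408 in null GFP+, against 5663 in het GFP+ and 1729 in null GFP−. Of these 9, 7 were called lower in null GFP+ than in het GFP+. Acta1, the skeletal muscle actin, read 137 and 143 in null GFP+, 1442 in het GFP+ and 208 in null GFP−. The part of muscle RNA in the value of Cox6a2 was not tested. Its widely expressed counterpart Cox6a1 read 9139 and 10356 in null GFP+, against 9760 in both het GFP+ and null GFP−, so that the null GFP+ libraries lay on either side of the others.

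The other isoform pairs of complex IV showed smaller differences. Cox7a1, the heart and muscle form of subunit 7a, read 374 and 485 across the libraries labelled null GFP+, against 445 in het GFP+ and 442 in null GFP−. Its widely expressed form Cox7a2 read 290 and 376, against 246 in het GFP+ and 314 in null GFP− (log2 difference 0.62 against het GFP+, adjusted p = 0.469 from limma). Cox7a1 overlapped in both comparisons, while Cox7a2 stood above het GFP+ in both null GFP+ libraries and overlapped with null GFP−. Cox6b2, known as the testis form of subunit 6b, read 156 and 201 in null GFP+, against 144 in het GFP+ and 211 in null GFP−, and Cox6b1, the usual form, read 7406 and 11147, against 9029 in het GFP+ and 9693 in null GFP−. The null GFP+ libraries differed from each other by 0.78 on the log2 scale for Cox6b2 and by 0.60 for Cox6b1, and only Cox6b2 stood above het GFP+ in both. Cox4i2, Cox7b2 and Cox8c, forms of subunits 4, 7b and 8, were not detected on any array.

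The promoter of Cox8b held few CG dinucleotides and neither of 2 motifs searched. The bases before the annotated start are shown for Cox8b, for Cox7a1 as another tissue-typed form, and for Cycs and Cox6a1 as widely expressed members, to compare them for the binding motifs of nuclear respiratory factor 1 (NRF1) and of ETS factors such as GABP, regulators known to act on many respiratory chain genes. The sequences are from RefSeq, build GRCm38.p6, 150 bases up to the start, written 5′ to 3′ on the strand of the gene. Capitals mark a match to the NRF1 core GCGCATGC (in reverse GCATGCGC) or to the ETS core CCGGAAG (in reverse CTTCCGG).
Cox8b, chr7:140900447-140900596, minus strand: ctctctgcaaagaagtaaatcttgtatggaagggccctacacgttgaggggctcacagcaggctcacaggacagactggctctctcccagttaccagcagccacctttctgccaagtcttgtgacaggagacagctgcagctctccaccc
Cox7a1, chr7:30184021-30184170, plus strand: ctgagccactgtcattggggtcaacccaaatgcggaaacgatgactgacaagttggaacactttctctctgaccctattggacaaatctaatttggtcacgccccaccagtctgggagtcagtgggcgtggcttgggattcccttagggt
Cycs, chr6:50566570-50566719, minus strand: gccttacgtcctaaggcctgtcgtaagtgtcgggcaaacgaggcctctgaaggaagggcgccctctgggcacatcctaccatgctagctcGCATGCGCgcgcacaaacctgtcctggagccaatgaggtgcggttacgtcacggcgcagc
Cox6a1, chr5:115348959-115349108, minus strand: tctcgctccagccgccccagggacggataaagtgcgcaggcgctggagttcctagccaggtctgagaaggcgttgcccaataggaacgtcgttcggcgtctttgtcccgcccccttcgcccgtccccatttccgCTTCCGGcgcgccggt
The stretch of Cox8b held 1 CG dinucleotide and that of Cox7a1 held 4, against 13 in Cycs and 18 in Cox6a1. Over the full window of 300 bases (most of them before the start), Cox8b held 2 CG dinucleotides, the fewest of the 68 genes with a window, whose median was 20, and Cox7b, with 5, the next fewest. Neither motif was found in the window of Cox8b or of Cox7a1.

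Of the 79 genes, 68 matched the promoter table. The NRF1 core, on either strand, was in 12 of 68 windows (17.6%), beside 5.82% of the 8062 tested genes that matched and 3.05% of all 27025 genes in the table. The ETS core was in 16 of 68 (23.5%), beside 19.3% of tested genes and 9.93% of all genes. Both were in 4 windows (Sdhb, Uqcr11, Cox6a1 and Atp5l) and neither in 44 (64.7%). The motifs do not overlap each other in letters, a match is a description and not a bound site, and a window without a match says only that these letters were not in it.

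Complex I, the NADH dehydrogenase, was measured by 5 core and 28 accessory subunits. The median difference was 0.20 against het GFP+ and 0.10 against null GFP−, and 0 of 33 were called in either comparison by limma. At an unadjusted p under 0.05 there were 1 and 0 of 33, beside 1686 and 1613 of all 9975 genes. All 5 core subunits, among them the carriers of the flavin and of iron-sulphur clusters, read higher in both null GFP+ libraries than in null GFP−, as did 39.9% of all genes, and 4 of 5 did so against het GFP+, as did 42.7% of all genes. Ndufv1, which holds the flavin that takes electrons from NADH, read 5328 and 5322 across the libraries labelled null GFP+, against 4077 in het GFP+ and 4325 in null GFP−. Ndufv2, its partner with an iron-sulphur cluster, read 4904 and 4835, against 3501 in het GFP+ and 4346 in null GFP−. Both genes were higher in null GFP+ without overlap, by 0.39 and 0.49 on the log2 scale against het GFP+ (adjusted p = 0.574 and 0.482 from limma). Ndufv2 was named after its values were seen. Ndufs8 was the exception, with 2192 and 1906 in null GFP+, against 1914 in het GFP+ and 1834 in null GFP−. Ndufs1 had a probe that was not detected (highest intensity 104).

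Among the accessory subunits, differences against het GFP+ ran over a range of -0.30 to 0.80. Ndufa13, the brightest of the complex, read 16102 and 18513 in null GFP+, against 15824 in het GFP+ and 16781 in null GFP− (0.13 against het GFP+). Ndufb5 read 379 and 451 across the libraries labelled null GFP+, against 276 in het GFP+ and 394 in null GFP− (log2 difference 0.80 against het GFP+, SE 0.30, adjusted p = 0.297 from limma), so that het GFP+ was the low library and null GFP− lay between the null GFP+ libraries. Ndufb9 read 255 and 290, against 206 in het GFP+ and 212 in null GFP−, higher in null GFP+ without overlap in both comparisons (0.66 against het GFP+, adjusted p = 0.378 from limma). The lowest difference was that of Ndufb2, with 184 and 219 in null GFP+, against 226 in het GFP+ and 229 in null GFP− (-0.30, adjusted p = 0.738 from limma). Ndufb5, Ndufb9 and Ndufb2 lie in the membrane arm, the part of the enzyme that pumps protons. Ndufb11, also of the membrane arm, read 218 and 201 in null GFP+, against 219 in het GFP+ and 209 in null GFP−, and Ndufb4 read 144 and 150, against 137 in het GFP+ and 162 in null GFP−, with only null GFP− well above background.

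Complex II, the succinate dehydrogenase that is also an enzyme of the citric acid cycle, had a median difference of -0.07 against het GFP+ and -0.12 against null GFP− over 3 subunits. Sdhb, the iron-sulphur subunit, read 1277 and 1384 across the libraries labelled null GFP+, against 1631 in het GFP+ and 1440 in null GFP−, below both. A second Sdhb probe ran the other way, with 1308 and 1455 in null GFP+, against 1250 in het GFP+ and 1268 in null GFP−, above both. Sdhc, a membrane anchor that binds haem, read 4402 and 4390, against 3815 in het GFP+ and 3828 in null GFP−, above both. Sdhd, the other anchor, read 175 and 191, against 187 in het GFP+ and 204 in null GFP−. None of the 3 passed the test (log2 differences of -0.31, 0.21 and -0.07 against het GFP+), and the catalytic subunit Sdha was not detected (highest intensity 110).

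In complex III, the cytochrome bc1 complex, the order against het GFP+ was shared by every member measured, as read from its brightest probe. By these probes, both libraries labelled null GFP+ read above het GFP+ in all 6 subunits, as in 42.7% of all genes. In 3 of 6 both also read above null GFP−, beside 39.9% of all genes. The median difference was 0.36 against het GFP+ and 0.19 against null GFP−, and 0 of 6 were called by limma in either comparison. At an unadjusted p under 0.05 there were 1 and 0 of 6, beside 1686 and 1613 of all 9975 genes. Uqcrq, a small subunit that binds next to cytochrome b, read 1034 and 1225 in null GFP+, against 683 in het GFP+ and 736 in null GFP−, higher in null GFP+ without overlap in both comparisons. Its difference of 0.81 against het GFP+ (SE 0.29, adjusted p = 0.281 from limma) was the largest after those of Cox8b and Cox6a2. The core protein Uqcrc1 read 3158 and 3472 in null GFP+, against 2663 in het GFP+ and 2742 in null GFP−, and the core protein Uqcrc2 read 6008 and 6304, against 4672 in het GFP+ and 4761 in null GFP−. Both core proteins were above both other libraries. Uqcr10, Uqcr11 and Uqcrh, small subunits, differed from het GFP+ by 0.29, 0.45 and 0.26 and from null GFP− by 0.07, 0.03 and 0.09, with null GFP− between the null GFP+ libraries in each. Uqcrh read 11079 and 15209 in null GFP+, against 10840 in het GFP+ and 12182 in null GFP−. Uqcr10 read 10561 and 12956, against 9561 in het GFP+ and 11147 in null GFP−. A second Uqcr10 probe read 8561 and 11200, against 8576 in het GFP+ and 9014 in null GFP−. By that probe het GFP+ also lay between the null GFP+ libraries. The Rieske protein gene Uqcrfs1 was not detected (highest intensity 134).

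Cycs, which encodes cytochrome c, the carrier between complexes III and IV, read 2856 and 2636 across the libraries labelled null GFP+, against 2023 in het GFP+ and 1742 in null GFP−. Both null GFP+ libraries were above both others. The differences were 0.46 against het GFP+ and 0.69 against null GFP− (SE 0.27, adjusted p = 0.516 and 0.351 from limma).

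In complex IV, cytochrome c oxidase, the median difference of 13 subunits was 0.21 against het GFP+ and -0.0047 against null GFP−. Cox4i1, the usual form of subunit 4, read 14913 and 17464 across the libraries labelled null GFP+, against 12994 in het GFP+ and 15560 in null GFP−. Cox5a read 5176 and 4904, against 4183 in het GFP+ and 3646 in null GFP−. Cox5a was higher in null GFP+ than in both other libraries, while null GFP− lay between the null GFP+ libraries for Cox4i1. Cox5b read 12608 and 10725, against 10482 in het GFP+ and 11996 in null GFP−, and Cox7b read 126 and 167, against 151 in het GFP+ and 155 in null GFP−. For Cox7b the null GFP+ libraries lay on either side of both others and differed by 1.03 from each other on the log2 scale, at signals close to background. Ndufa4, named for complex I but known as a complex IV subunit, was counted here, with a difference of 0.21 against het GFP+.

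In complex V the median difference of 14 subunits was 0.16 against het GFP+ and 0.11 against null GFP−, and 0 of 14 were called by limma. At an unadjusted p under 0.05 there were also 0 in both comparisons, beside 1686 and 1613 of all 9975 genes. The catalytic beta subunit Atp5b read 20898 and 22080 across the libraries labelled null GFP+, against 17850 in het GFP+ and 17427 in null GFP−. The alpha subunit Atp5a1 read 385 and 466, against 321 in het GFP+ and 365 in null GFP−. The gamma subunit Atp5c1, the rotating shaft, read 7604 and 5699, against 5534 in het GFP+ and 5481 in null GFP−. These 3 were higher in null GFP+ without overlap in both comparisons, by 0.27, 0.53 and 0.25 against het GFP+, none past the test. Over the 14 subunits, both null GFP+ libraries read above het GFP+ in 7, beside 42.7% of all genes, and above null GFP− in 7, beside 39.9%. The delta subunit Atp5d of the same F1 part, named after its values were seen, read 3733 and 4491 in null GFP+, against 4054 in het GFP+ and 4192 in null GFP−, and overlapped in both.

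Atp5g2 and Atp5g3 encode the same c subunit of the membrane rotor from different genes. Atp5g2 read 1612 and 2480 across the libraries labelled null GFP+, against 1424 in het GFP+ and 1807 in null GFP−, and Atp5g3 read 17344 and 16347, against 11996 in het GFP+ and 13324 in null GFP−. Their differences against het GFP+ were close, 0.52 and 0.49 (adjusted p = 0.592 and 0.480 from limma), but null GFP− lay between the null GFP+ libraries for Atp5g2 and below both for Atp5g3. Atp5pb, the b subunit of the stator stalk, had the lowest difference of the complex, with 2316 and 1918 in null GFP+, against 2805 in het GFP+ and 1905 in null GFP− (-0.43 against het GFP+, adjusted p = 0.568 from limma). Here het GFP+ was the high library. Atp5j, which couples the stalk to the head, read 5871 and 7788 in null GFP+, against 6699 in het GFP+ and 6503 in null GFP−. Atp5e, the epsilon subunit of the central stalk, read 167 and 206, against 177 in het GFP+ and 211 in null GFP−. By the brightest probe, Atp5j overlapped in both comparisons. Atp5e overlapped with het GFP+, while both its null GFP+ libraries lay below null GFP−. A second Atp5j probe read 853 and 664 in null GFP+, against 959 in het GFP+ and 726 in null GFP−. By that probe both null GFP+ libraries lay below het GFP+ (log2 difference -0.40, adjusted p = 0.633 from limma) and on either side of null GFP−. Atp5k and Atp5md were not detected, and Atp5g1 is not named in the annotation used here.

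The 7 complex I assembly factors, which build the enzyme and are no part of it, differed from het GFP+ by -0.28 to 0.33, with a median of 0.02. Ndufaf1 was the highest, with 877 and 1062 across the libraries labelled null GFP+, against 784 in het GFP+ and 816 in null GFP−, and Ndufaf5 the lowest, with 467 and 371, against 483 in het GFP+ and 409 in null GFP−. Ndufaf1 was above both other libraries, and Ndufaf5 below het GFP+ only. Both were named after their values were seen. Cox7a2l read 4172 and 4275 in null GFP+, below 4689 in het GFP+ and 4482 in null GFP−.

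**Figure D3:**
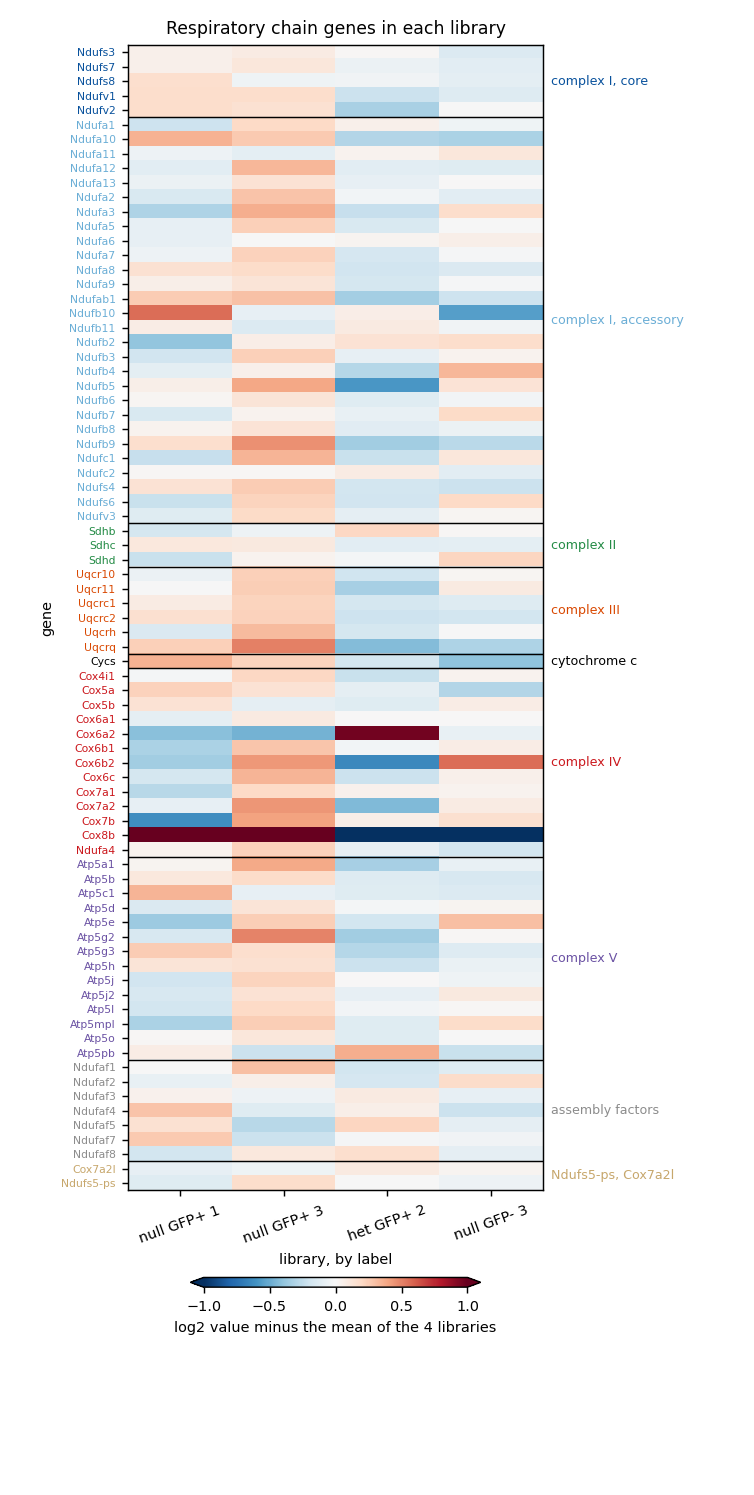
Log2 value of each of the 79 genes (rows, coloured and grouped by complex) in each of the 4 libraries (columns), minus the mean of the gene over the 4 libraries. The colour scale ends at -1 and 1, which Cox8b alone passes. Reds are most frequent in the column null GFP+ 3, as the median of 0.19 between the null GFP+ libraries states, and blues in the column het GFP+ 2.

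Many of the genes also followed the number in the library name. The titles give number 3 to 1 null GFP+ and to the null GFP− library, number 1 to the other null GFP+ and number 2 to het GFP+, and do not say what the number stands for, while the description field calls each of the 4 libraries replicate 3. In 28 of 79 genes (35.4%) both libraries numbered 3 read above both others, against 16.1% of all genes, and in 9 of 79 (11.4%) both read below, against 13.0% of all genes. Ndufa3, an accessory subunit of complex I, read 8532 and 7485 in the libraries numbered 3 (null GFP+ and null GFP−), against 5387 in null GFP+ number 1 and 5692 in het GFP+. Ndufs6, another accessory subunit, read 7166 and 7055 in the libraries numbered 3, against 5281 in null GFP+ number 1 and 5406 in het GFP+. Uqcr11 read 7698 and 6924 in the libraries numbered 3, against 6477 in null GFP+ number 1 and 5202 in het GFP+. Cox6b2, Atp5e and Cox7a2, whose values are given above, had the same order.

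Of the 9 genes that were lower in both libraries numbered 3, 4 were assembly factors (Ndufaf3, Ndufaf4, Ndufaf5 and Ndufaf7). Ndufaf4 read 683 and 647 in the libraries numbered 3, against 875 in null GFP+ number 1 and 762 in het GFP+. The others were Ndufs8, Ndufb10, Ndufb11, Ndufc2 and Atp5pb. Null GFP+ number 3 minus null GFP+ number 1 had a median of 0.19 over the 79 genes, beside 0.02 over all genes. It was 0.48 in complex IV, 0.29 in complex V, 0.26 in complex III, -0.0017 in the complex I core and -0.09 in the assembly factors. This difference and that of null GFP− minus het GFP+ share no library, and their Spearman correlation was 0.49 across the 79 genes and 0.27 across all 9975 genes. These are descriptions across genes, which are not independent replicates, and all 4 arrays were normalized together. Het GFP+ is the only library with its number, so number and group cannot be told apart in any comparison with it. Null GFP− shares number 3 with 1 null GFP+ library, and within that number the median of null GFP+ minus null GFP− was 0.19, from 1 library on each side. Ndufa3, Ndufs6 and the assembly factors were named after their values were seen.

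**Figure D4:**
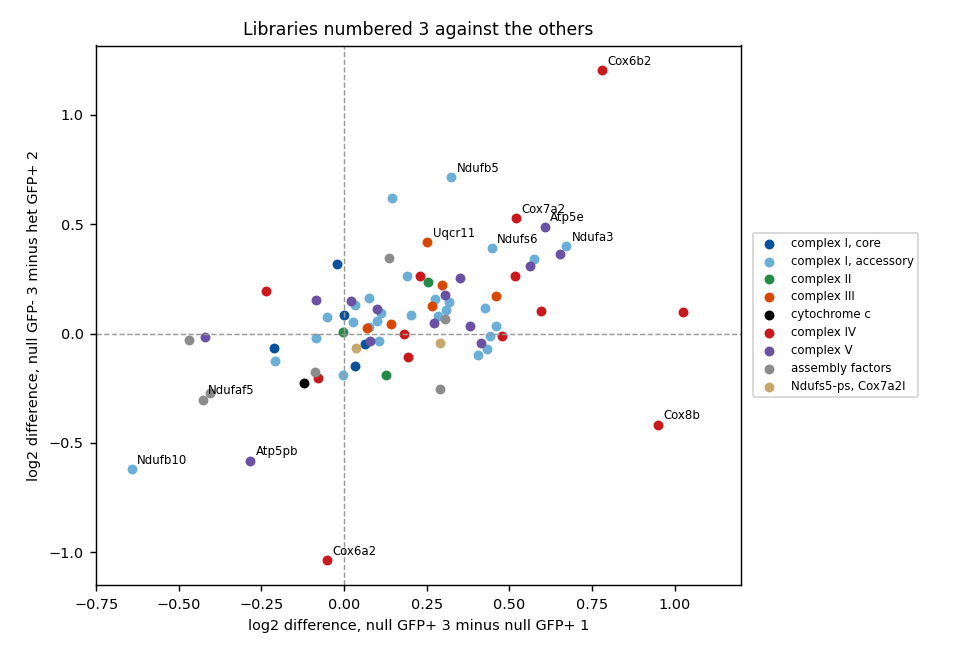
Each of the 79 genes by its log2 difference of null GFP+ 3 minus null GFP+ 1 (horizontal) and of null GFP− 3 minus het GFP+ 2 (vertical). Points are genes coloured by complex, dashed lines mark 0, and a few genes are named. The upper right holds the 28 genes that are higher in both libraries numbered 3 and other genes that are higher in number 3 within each pair only.

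Probes of the same gene did not always run alike. Of the 79 genes, 23 had more than 1 tested probe, of which 8 had probes with differences of opposite sign against het GFP+ and 2 had probes over 0.5 apart. Ndufb10 read 1263 and 843 with its brightest probe across the libraries labelled null GFP+, against 924 in het GFP+ and 633 in null GFP−. Its second probe read 237 and 1020, against 237 in het GFP+ and 1133 in null GFP−. The second probe was thus high in both libraries numbered 3 and near 237 in the others, while the brightest one was low in them. Which transcripts or processed pseudogene copies each probe can read is not known here.

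Among other mitochondrial and energy genes, 0 of each list were called by limma in null GFP+ against het GFP+, and outside the mitochondrial ribosome single differences ran up to 0.97 (Ppargc1b, a coactivator of mitochondrial biogenesis). The median difference against het GFP+ was 0.28 over 14 of 16 enzymes of the citric acid cycle and 0.18 over 71 of 76 proteins of the mitochondrial ribosome. It was 0.18 over 22 of 28 further assembly factors and 0.21 over 12 of 15 regulators of mitochondrial transcription and biogenesis. Over 7 of 12 genes listed as carriers, pores and uncoupling it was 0.41, beside 0.16 over 11 of 15 enzymes of glycolysis. Those 7 include Atpif1 and Ckmt1, which are neither carriers nor pores. At an unadjusted p under 0.05 there was 1 gene of the citric acid cycle, 1 of the ribosome and 0 of the other lists. Beside these stood 1686 of all 9975 genes. The transcription factor Nrf1, whose motif is named above, read 536 and 711 across the libraries labelled null GFP+, against 539 in het GFP+ and 575 in null GFP−, and Gabpa, the ETS subunit of GABP, read 201 and 165, against 160 in het GFP+ and 152 in null GFP−. Tfam, which packs and transcribes mitochondrial DNA, read 605 and 522, against 563 in het GFP+ and 531 in null GFP−. Gabpa was above both other libraries, but null GFP− was not well above background and null GFP+ number 3 was close to het GFP+. Its log2 difference against het GFP+ was 0.38 (SE 0.35, adjusted p = 0.691 from limma). The groups overlapped for Nrf1 against both and for Tfam against both.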

How the data were processed

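For 4 arrays, hybridized with biotinylated cRNA of sorted cells, the authors deposited linear intensities per probe, and also a table that pairs further signals with a detection p-value for each. Their normalization is not given in the sources used. At each rank the arrays lay within 0.380% of their mean, so 1 distribution was already shared. None of the 4 signal columns in that table could be matched to a label, and these were left out. The deposited detection p-values served only where it does not matter which column belongs to which library.

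Of 45281 probes, 34885 carried 1 symbol in the annotation of the platform, 18 carried several and 10378 carried none. A normexp background correction with detection p-values was fitted to the common distribution (mean 108, SD 13.6), 16 was added, and log2 and quantile normalization followed. The 17379 probes detected (p under 0.01) on any array were fitted with limma 3.58.1 in R 4.3.3 over 4 libraries in 3 groups by label (1 residual and 4.03 prior degrees of freedom, two-sided tests). Where every library of a group was under 154, folds are given as lower bounds on the scale of the fit. The script was tested on simulated data. Precision is limited by the small number of arrays.

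The genes, lists and tests were chosen with earlier results of these data known. Genes named with values were catalytic or core members, the complex IV isoform pairs, the 2 largest rises and falls in each complex, genes that passed the test, and the brightest and dimmest of each complex. Alternatives covered the background correction, offset, detection filter, variance model, scaling, probe rule, test and libraries left out. Promoter windows came from RefSeq (GRCm38.p6), and other coordinates are left out because no build is named for the array. Figures were drawn with matplotlib 3.10.9.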

Additional observations from a re-analysis of the deposited data

How the results depend on the processing

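The count of respiratory chain genes called in null GFP+ against het GFP+, 1 as reported, was 0 with no filter on detection p, 0 among genes detected on all 4 arrays (Cox8b was not among them), 0 by the methods' t-test once its p-values were adjusted by Benjamini-Hochberg, a step the methods do not name, and 2 (1 higher, Cox8b, and 1 lower, Cox6a2) with the mean of all tested probes of a gene. Against null GFP− it was 0 with no filter, 0 among genes detected on all 4 arrays and 0 by the methods' t-test. No alternative called a gene in het GFP+ against null GFP−. Cox6a2 has 1 tested probe, so taking the mean of probes left its difference unchanged. That probe was well above background only in het GFP+, which alone may have carried it through the detection filter. The median difference against het GFP+ ran over a range of 0.10 to 0.31 when 1 null GFP+ library was left out, and that against null GFP− over a range of -0.05 to 0.19. With the mean of all tested probes, Atp5j (-0.19) and Cox6a1 (0.028) changed sign against het GFP+, both from values near 0. Each has a second probe of the opposite sign (-0.40 for Atp5j and 0.060 for Cox6a1), which enters that mean. Cox8b was higher in null GFP+ under every alternative that tested it, at 2.70 to 3.65 against het GFP+ and 3.11 to 4.07 against null GFP− with 1 null GFP+ library left out, and at 2.19 and 2.36 with no background correction. Signals close to background limit Cox6a2, Cox7b, Ndufb4 and Cox6b2. No paired analysis was possible because null GFP+ and null GFP− share only number 3 and het GFP+ shares no number with either.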

Other observations

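The array also carries probes for subunits encoded by mitochondrial DNA, which were chosen after their values were seen. ND1, a membrane subunit of complex I, read 10600 and 11529 across the libraries labelled null GFP+, against 14167 in het GFP+ and 14136 in null GFP−. COX2, a catalytic subunit of complex IV, read 2952 and 4435 in null GFP+, against 5214 in het GFP+ and 6755 in null GFP−. In both genes the null GFP+ libraries lay below the others, by 0.36 and 0.54 on the log2 scale against het GFP+ (adjusted p = 0.617 and 0.558 from limma). CYTB, the haem protein of complex III, read 35964 and 35679, against 41144 in het GFP+ and 34264 in null GFP−, and ATP6, of the membrane part of complex V, read 2589 and 4908, against 3982 in het GFP+ and 5668 in null GFP−. ND4, ND5 and ND4L differed from het GFP+ by -0.17, -0.06 and 0.07 and from null GFP− by -0.46, 0.62 and -0.75. Of the 7 probes, 6 were below het GFP+ in the mean of null GFP+, and 0 were called by limma. For CYTB null GFP+ lay between the other libraries, and for ATP6 the null GFP+ libraries lay on either side of het GFP+.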
